A study of Arabidopsis thaliana with 18 samples.

Results

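This report describes 10 genes that encode repressors of the seed programme in Arabidopsis thaliana, chosen by their gene identifiers: VAL1, VAL2, PKL, CLF, SWN, FIE, EMF2, VRN2, MSI1 and LHP1. They are 10 of the 37336 genes counted. RNA-seq libraries were made in duplicate from germinating seeds of WT Col-0 and of 8 homozygous T-DNA lines, each carrying an insertion in a transcription factor gene: the homeodomain lines athb15, hat2, lmi1 and athb25, the NAC lines vnd2 and smb, and wrky14 and obp1. The 18 libraries therefore fall into 9 genotypes of 2. All genotypes were grown in parallel, and seeds pooled from several parent plants were collected after 48 h of cold, dark stratification and 24 h of continuous light (24 h SL). None of the 10 repressor genes was mutated in any line, and each transcription factor was represented by a single insertion allele. Whether the duplicates came from separately pooled seed lots is not stated, so the p-values measure the spread between libraries that may be partly technical.

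After germination the embryonic programme has to be shut down, and this is done at the level of chromatin. VAL1 and VAL2 are B3-domain proteins that bind RY elements, the same DNA motif that the embryonic activators ABI3, FUS3 and LEC2 recognise, and recruit repressive complexes there. Polycomb repressive complex 2 (PRC2) then trimethylates lysine 27 of histone H3 (H3K27me3). Its catalytic subunit is CLF or SWN, FIE and MSI1 are WD40-repeat core subunits, and EMF2 or VRN2 is the zinc-finger subunit. LHP1 is a chromodomain protein that binds the mark, and PKL (PICKLE) is a CHD3-class chromatin remodeller whose mutants keep embryonic traits in the seedling root.

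Libraries held between 18146206 and 33111743 counted fragments, and the smallest count of any of the 10 genes in any library was 473. No pair of duplicates agreed within sampling noise. The disrupted gene was lower than in Col-0 in athb15, athb25, hat2, lmi1 and smb. VND2 was too weakly expressed for its change to be called (log2 fold change −0.75, SE 0.514, adjusted p = 0.414, edgeR). In 2 lines the targeted gene was fitted as higher than in Col-0, against the label. OBP1 was at 12.7 CPM in the libraries labelled obp1 and 8.69 CPM in Col-0. That difference was not called (log2 fold change 0.55, SE 0.15, adjusted p = 0.0262, edgeR). WRKY14 was at 10.4 CPM in the libraries labelled wrky14 and 0.314 CPM in Col-0, and was called (5.01, SE 0.269, adjusted p = 3.38e-09, edgeR). The libraries of these 2 lines are therefore named by their labels below. In the study, resequencing of seedling DNA found only 1 T-DNA insertion, at the intended gene, in every line. Marker transcripts of the embryo's storage tissue and of the germinating endosperm were present in every library, at summed levels of 887.2 to 11720 CPM and 5552 to 12637 CPM. In such bulk samples, fewer cells of a type and less RNA per cell cannot be told apart.

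The 2 VAL genes are shown first with the motif their proteins bind. The RY motif, CATGCA or its reverse complement TGCATG on the other strand, was searched in the 250 bases upstream of each annotated gene start (RefSeq, TAIR10.1), with overlapping matches counted separately. It occurred in 2314 of 27443 such windows, or 8.43%. Among the 10 repressor genes it was found in 1, VAL1 itself, with 4 matches. Among 9 seed storage and oil body genes it was found in 8, the exception being CRU2. The 9 were listed as well-known genes of the seed programme, with earlier results of these data known. The stretches below show the VAL1 matches beside those of 3 storage genes that the results come back to, with the RY motif in capitals, read 5′ to 3′ on the strand of each gene.
VAL1 (chr2:12985485-12985527, minus strand): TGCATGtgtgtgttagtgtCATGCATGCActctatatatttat
CRA1 (chr5:17758481-17758529, minus strand): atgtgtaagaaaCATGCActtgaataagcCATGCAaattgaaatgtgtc
CRU3 (chr4:14087475-14087506, plus strand): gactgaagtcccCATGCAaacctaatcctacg
SESA1 (chr4:13607238-13607294, plus strand): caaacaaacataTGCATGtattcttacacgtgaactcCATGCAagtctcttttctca
In VAL1, 3 of the 4 matches overlap within a run of 10 bases, and the first lies at the far edge of the window. A match is a description of the letters and not evidence of binding. Motifs linked to PRC2 recruitment in this species were also searched: the telobox (AAACCCTA or TAGGGTTT) was in 0 of the 10 windows and in 4.49% of all windows, and the GAGA motif (GAGAGA or TCTCTC) was in those of CLF and MSI1 and in 20.6% of all.

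Levels were compared between the repressors per kilobase of exon (RPKM), since CPM grows with transcript length. MSI1, the histone-binding WD40 subunit shared with other complexes, was the highest at a mean of 41.3 RPKM over the 18 libraries (35.7 to 45.2), and PKL followed at 29.1 RPKM (27.3 to 31.9). Then came CLF and FIE, both at 17.9 RPKM, VRN2 at 17.5 RPKM and EMF2 at 17.4 RPKM. VAL1 was at 15.2 RPKM, SWN at 13.2 RPKM, VAL2 at 12.2 RPKM and LHP1 at 11.8 RPKM. The ranges over libraries of MSI1 and PKL did not overlap with each other or with those of the other 8 genes. Neighbours among those 8 did overlap. All 10 transcripts were thus present in these bulk samples at 24 h SL, which does not place them in the same cells. They lay between the 57.6th percentile (LHP1) and the 86.0th percentile (MSI1) of the 19100 genes that passed the filter on low counts.

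**Figure D1:**
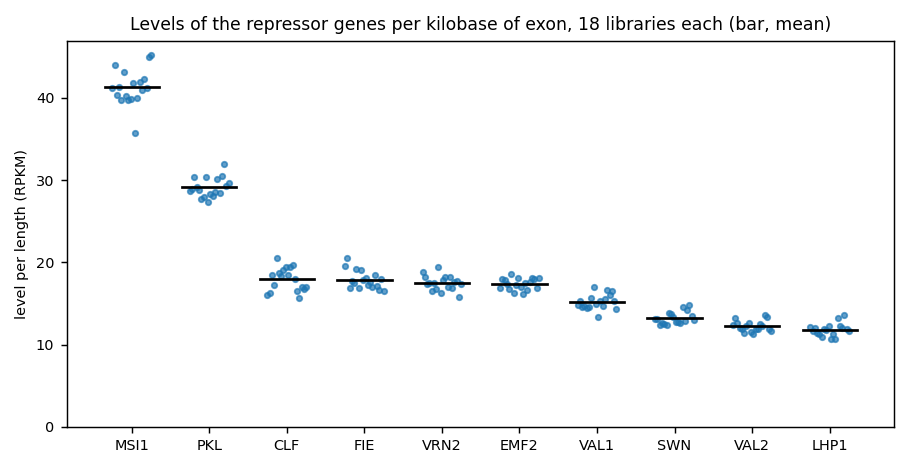
Level of each repressor gene in RPKM (vertical axis, linear from 0) in each of the 18 libraries (points), with the mean as a bar. MSI1 (41.3 RPKM) and PKL (29.1 RPKM) lie above the other 8 genes, whose means run from 11.8 to 17.9 RPKM.

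The main comparison set each of the 8 lines, as labelled, against Col-0. None of the 10 genes changed against Col-0 in any mutant at the study's threshold of adjusted p under 0.01: 0 of 80 tests were called by edgeR's quasi-likelihood test, 2 had an adjusted p under 0.05, 18 had an unadjusted p under 0.05, and DESeq2 called 1. The log2 fold changes ran from −0.25 (FIE in vnd2) to 0.28 (CLF in athb25), with SEs of 0.0586 to 0.0826, and 30 of the 80 were above 0. Every 95% interval lay between −0.41 and 0.42 on the log2 scale, which is 0.751- to 1.34-fold. Over all genes tested, the share called at the same threshold was, from low to high, 0.147% in athb15, 0.66% in hat2, 1.1% in lmi1, 1.16% for the wrky14 label, 1.62% in athb25, 2.15% in smb, 3.92% for the obp1 label and 4.13% in vnd2. At shares this low, a count of 0 among 10 genes does not set the repressors apart from other genes. The share of all genes at an unadjusted p under 0.05 or called by DESeq2 is not given here, so those counts are description only. A test over all 9 genotypes at once called 0 of the 10 genes, against 11.9% of all genes, both by edgeR. Of the 10, 4 had an unadjusted p under 0.05 and DESeq2 called 1, CLF, again without a share over all genes. The 8 comparisons share the same 2 Col-0 libraries, so they are not independent of each other.

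**Figure D2:**
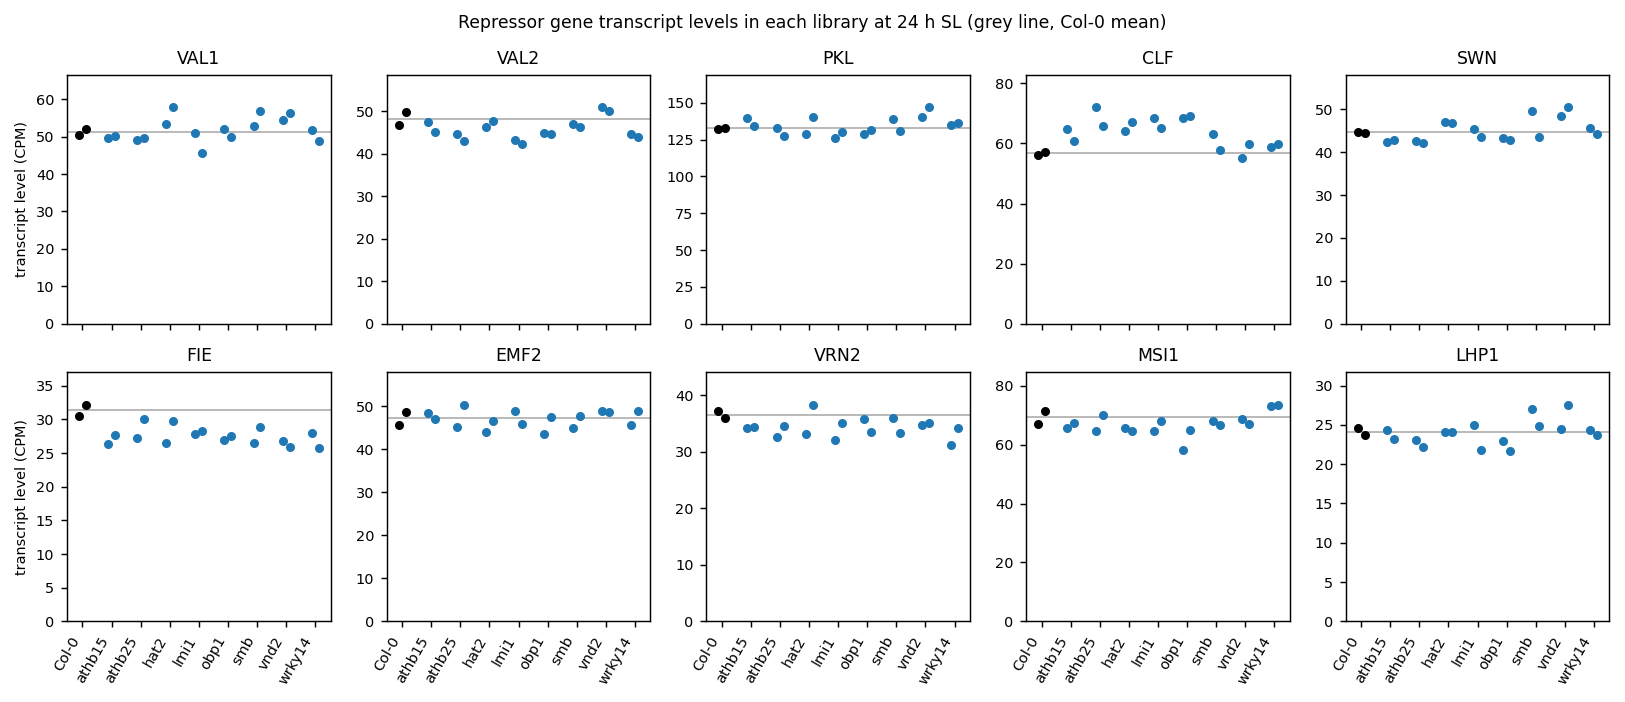
CPM of each repressor gene (vertical axes, linear from 0) in the 18 libraries grouped by genotype (horizontal axis), with Col-0 in black and its mean as a grey line. The points of each gene stay in a narrow band, with the ratio of the highest to the lowest genotype mean between 1.08 (EMF2) and 1.22 (CLF).

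The gene with the widest spread was CLF (AT2G23380; chromosome 2, 9955092 to 9960386), the main PRC2 methyltransferase of vegetative tissue. Col-0 had the lowest mean of the 9 genotypes, with 56.2 and 57.2 CPM in its 2 libraries. The highest were athb25, with 72.1 and 65.7 CPM, and the libraries labelled obp1, with 68.5 and 69.1 CPM. In both lines each library lay above both Col-0 libraries. The remaining means, from high to low, were 66.7 ± 2.41 CPM in lmi1, 65.6 ± 1.92 in hat2, 62.7 ± 2.91 in athb15, 60.5 ± 3.55 in smb, 59.3 ± 0.831 for the wrky14 label and 57.5 ± 3.15 in vnd2 (SD, n = 2). Of the 16 mutant libraries, 15 were above both Col-0 libraries, the exception being 1 library of vnd2. How many of all genes show such a pattern was not counted, so it is not read as particular to CLF.

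Neither of the CLF differences reached the threshold of 0.01. The log2 difference from Col-0 was 0.28 in athb25 (SE 0.067, 95% interval 0.14 to 0.42, adjusted p = 0.0186, edgeR) and 0.28 in the libraries labelled obp1 (SE 0.0666, adjusted p = 0.0123, edgeR), where 6.18% and 10.5% of all genes had an adjusted p under 0.05. The second sits at the threshold and not clearly on either side of it, since it had an adjusted p of 0.00678 with DESeq2 and 0.0053 without the filter on low counts. Over all 9 genotypes CLF had the smallest adjusted p of the 10 genes, 0.0108 (edgeR).

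CLF overlaps 2 genes on the opposite strand, AT2G23370 and AT2G23390, and the strand setting of the counting is not given in the sources used here. AT2G23390, at 49.6 CPM in Col-0, differed by 0.12 in athb25 and 0.11 in the libraries labelled obp1 on the log2 scale, and AT2G23370, at 19.4 CPM, by −0.15 and −0.13. None of these 4 differences was called. Their part in the CLF values was not tested.

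SWN (AT4G02020; chromosome 4, 886580 to 891987), the other methyltransferase of PRC2 outside the endosperm, did not follow CLF. It was lowest in athb25, with 42.7 and 42.1 CPM, against 44.7 and 44.5 CPM in Col-0, and highest in vnd2, with 48.4 and 50.5 CPM (log2 fold change 0.15, SE 0.0644, adjusted p = 0.17, edgeR). The next means in descending order were 46.9 ± 0.307 CPM in hat2, 46.6 ± 4.27 in smb, 45.0 ± 1.01 for the wrky14 label, 44.4 ± 1.25 in lmi1, 43.0 ± 0.247 for the obp1 label and 42.5 ± 0.358 in athb15 (SD, n = 2). The pair can be read as a share, which cancels library size. CLF made up 55.2% ± 0.38 of the summed RPKM of CLF and SWN in Col-0, 61.1% ± 1.31 in athb25, 60.7% ± 0.275 for the obp1 label and 52.9% ± 0.611 in vnd2 (SD, n = 2). Shares in athb25 and in the libraries labelled obp1 lay above those of Col-0 in every library and those of vnd2 below. Shares in lmi1 (mean 59.3%), athb15 (58.8%) and hat2 (57.5%) also lay above Col-0 in every library, and those of smb and the wrky14 label did not. For the other paralogue pairs the shares moved less: VAL1 made up 54.0% (Col-0) to 56.7% (hat2) of VAL1 and VAL2, and EMF2 made up 48.1% (hat2) to 51.4% (wrky14-labelled) of EMF2 and VRN2. The shares were not tested.

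**Figure D3:**
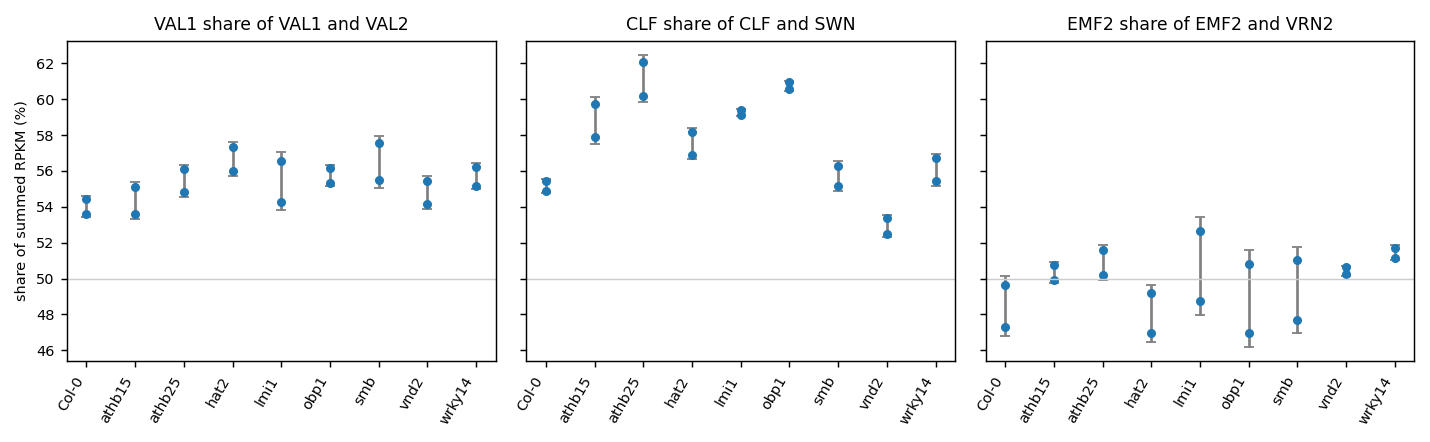
Share of the summed RPKM (percent, vertical axis, which does not start at 0) taken by VAL1, CLF and EMF2 within their paralogue pairs, by genotype, with both libraries as points and the SD as bars. The CLF share runs from 52.9% in vnd2 to 61.1% in athb25.

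FIE (AT3G20740; chromosome 3, 7248809 to 7252452), the Esc homologue of PRC2, was highest in Col-0, with 30.5 and 32.2 CPM. All 16 mutant libraries lay below both, with means from 28.7 ± 1.94 CPM in athb25 to 26.4 ± 0.601 CPM in vnd2 (SD, n = 2). The difference was largest in vnd2, with 26.8 and 25.9 CPM (log2 fold change −0.25, SE 0.0779, adjusted p = 0.0508, edgeR). It had an unadjusted p under 0.05 in 7 of the 8 mutants and an adjusted p under 0.05 in none. Since all 8 differences are taken from the same 2 Col-0 libraries, they are not 8 independent results. How many of all genes lie below both Col-0 libraries in this way was not counted. Among the mutants themselves no pair was called. FIE also overlaps AT3G20730 and AT3G04025 on the other strand, and VAL2, PKL, MSI1 and LHP1 each overlap 1 such gene.

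MSI1 (AT5G58230; chromosome 5, 23556012 to 23558245) was lowest in the libraries labelled obp1, at 58.1 and 65.0 CPM, against 67.0 and 71.5 CPM in Col-0 (log2 fold change −0.17, SE 0.0653, adjusted p = 0.104, edgeR), and highest in those labelled wrky14, at 73.1 and 73.5 CPM. One of the libraries labelled obp1 therefore lay well below the other, and the other lay just below Col-0. The zinc-finger subunits had the smallest spread of genotype means. EMF2 (AT5G51230; chromosome 5, 20823644 to 20829644) ran from 45.3 ± 1.73 CPM in hat2 to 48.7 ± 0.166 in vnd2, with 47.2 ± 2.05 in Col-0 (hat2 log2 fold change −0.06, SE 0.071, adjusted p = 0.745, edgeR), and had no pair of genotypes at an unadjusted p under 0.05. VRN2 (AT4G16845; chromosome 4, 9476069 to 9479878), required for the memory of winter, ran from 32.7 ± 2.12 CPM in the libraries labelled wrky14 to 36.6 ± 0.852 in Col-0 (log2 fold change −0.16, SE 0.0786, adjusted p = 0.319, edgeR), and 15 of the 16 mutant libraries lay below both Col-0 libraries. As for FIE, how common this is over all genes was not counted. LHP1 (AT5G17690; chromosome 5, 5827142 to 5829763) was the least abundant of the 10, from 22.3 ± 0.922 CPM in the libraries labelled obp1 to 26.0 ± 2.21 in vnd2, with 24.1 ± 0.671 in Col-0 (SD, n = 2; log2 fold change −0.12 in the former, adjusted p = 0.415, edgeR).

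Of the 2 B3 repressors, VAL2 (AT4G32010; chromosome 4, 15479379 to 15485354) was highest in vnd2, with 51.0 and 50.1 CPM, and lowest in lmi1, with 43.3 and 42.3 CPM. Col-0, at 46.7 and 49.8 CPM, lay between them, and the difference between lmi1 and Col-0 was not called (log2 fold change −0.17, SE 0.0591, adjusted p = 0.0994, edgeR). VAL1 (AT2G30470; chromosome 2, 12980428 to 12985277), whose upstream window holds the RY run shown above, was highest in hat2, with 53.3 and 57.9 CPM, and lowest in lmi1, with 50.9 and 45.5 CPM. Its Col-0 libraries were at 50.5 and 52.1 CPM, inside the range of the mutants (hat2 log2 fold change 0.11, SE 0.0677, adjusted p = 0.445, edgeR). PKL (AT2G25170; chromosome 2, 10713807 to 10724106) was the most abundant in CPM and the steadiest after EMF2 and VRN2, from 128.2 ± 3.12 CPM in lmi1 to 143.8 ± 4.75 in vnd2, with 132.7 ± 0.44 in Col-0 (SD, n = 2; log2 fold change 0.12 in vnd2, SE 0.0606, adjusted p = 0.263, edgeR).

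**Figure D4:**
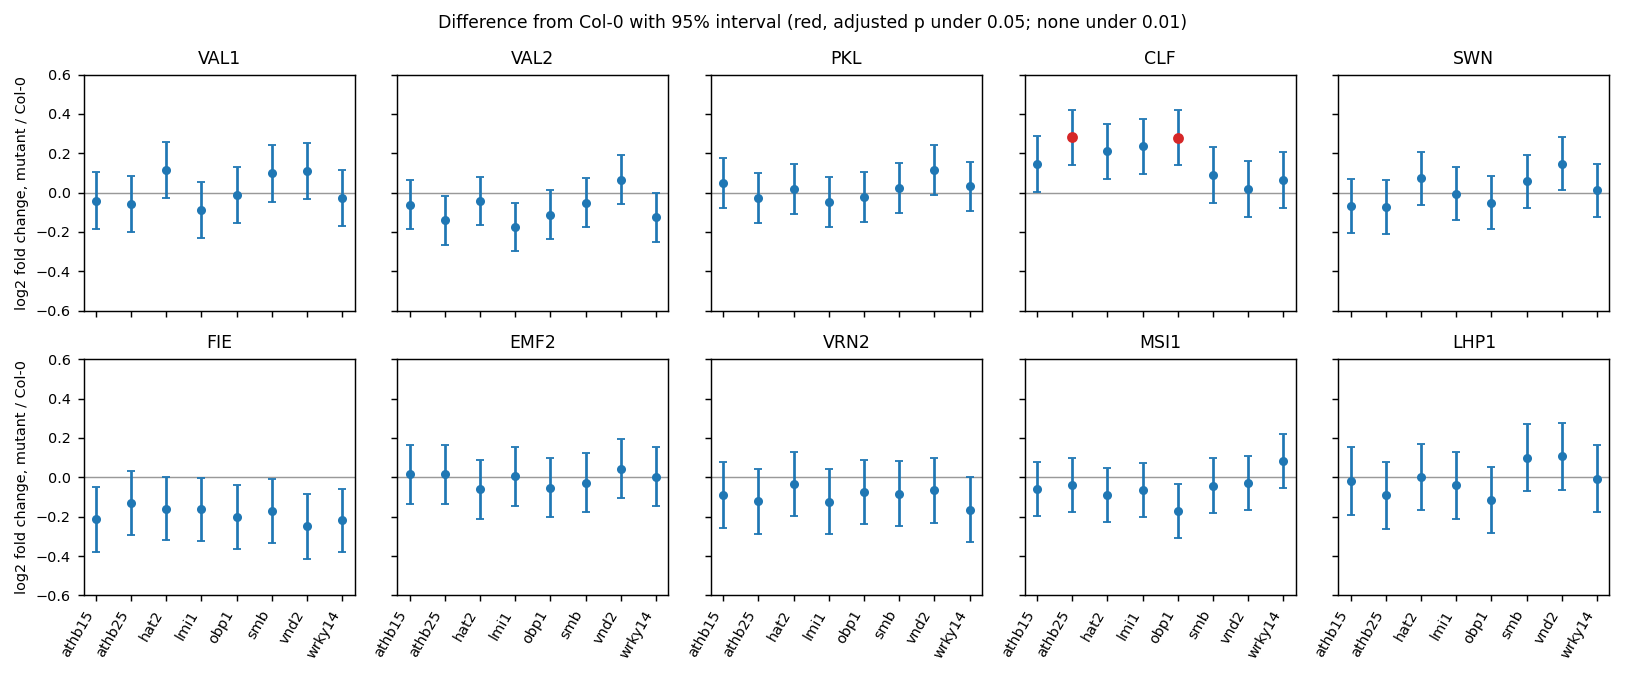
Log2 fold change of each mutant against Col-0 (vertical axes, −0.6 to 0.6) with its 95% interval, for the 10 repressor genes and 8 mutants. Red points have an adjusted p under 0.05, which only CLF in athb25 and in the libraries labelled obp1 reached. All 80 intervals lie between −0.41 and 0.42.

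Comparing the genotypes in all 36 pairs, those with Col-0 included, gave 360 tests, of which 3 were called, against 2.32% of all tests over all genes. All 3 involved vnd2, and they lie in the 3 pairs with the most called genes of the 36: 10.7% of all genes between vnd2 and athb25, 9.52% between vnd2 and the obp1 label and 7.2% between vnd2 and lmi1. One call among 10 repressors in each pair is near those shares. CLF was lower in vnd2 than in athb25 (57.5 against 68.9 CPM; log2 difference −0.26, SE 0.0667, adjusted p = 0.00871, edgeR) and lower than in the libraries labelled obp1 (68.8 CPM; −0.26, SE 0.0664, adjusted p = 0.00999, edgeR). VAL2 was higher in vnd2 than in lmi1 (50.6 against 42.8 CPM; 0.24, SE 0.0588, adjusted p = 0.00942, edgeR). DESeq2 made only the second of these calls, and that of VAL2 was also lost without the filter on low counts and with a mean of at least 50 counts. All 3 lay close to the threshold: with each of the 18 libraries left out in turn, the first was called in 3 of the 18 fits, the second in 8 and the third in 4, and 0 to 5 calls were made per fit (0 without Col-0 replicate 2, vnd2 replicate 2 or any 1 library of athb15 or of the obp1 label). In the vnd2 libraries storage transcripts were also at their highest, at 6854 and 11720 CPM in sum, and their part in the CLF and VAL2 values was not tested. For the other 8 genes, no genotypes differed from each other at this threshold, neighbours in the order of levels included.

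The spread of the repressors over genotypes was set beside that of all genes at least as abundant as LHP1, the lowest of the 10. The highest genotype mean exceeded the lowest by a median factor of 1.17 over the 10 genes and of 1.19 over the 7661 genes at or above its mean CPM. The genes whose profile over the 9 genotype means was most like that of CLF, out of 11740 genes, were AT3G44330 (Pearson's r = 0.975), NUDX27 (AT5G06340; r = 0.972) and FTM1 (AT1G43800; r = 0.967). These are the highest of many correlations over 9 points and are a description.

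Partners of these repressors were read from a separate list. Of 33 further PRC2 and PRC1 subunits, PHD proteins, telobox binders, histone deacetylase subunits and VAL or PKL relatives, 28 passed the filter. MEA and FIS2, the PRC2 subunits of the developing endosperm, VEL2, PKR2 and AT3G23060 did not. In 224 tests against Col-0, 1 gene rose and 1 fell, both in the libraries labelled obp1, where 3.92% of all genes were called. These 2 of 28 are not set apart from that share. MSI4 (FVE), a paralogue of MSI1 that represses FLC, fell, with 92.3 and 101.5 CPM against 125.8 and 120.7 CPM in Col-0 (log2 fold change −0.35, SE 0.0718, adjusted p = 0.00516, edgeR). VEL1, a PHD protein of the family of VIN3 that associates with PRC2, rose, with 215.9 and 215.2 CPM against 161.6 and 168.5 CPM (0.39, SE 0.0824, adjusted p = 0.00612, edgeR). Both calls were lost when any 1 of the 4 libraries compared was left out (adjusted p up to 0.105 for MSI4, without obp1-labelled replicate 1, and up to 0.0608 for VEL1, without Col-0 replicate 1), and that of VEL1 also without either athb15 library. VIN3 itself, the subunit induced by prolonged cold, had the highest fitted difference in this list in all 8 mutants, from 0.45 to 1.41, but with at most 20 counts in a library no difference was called.

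Genes that counteract Polycomb were tested for all 13 of 13. JMJ30, an H3K27 demethylase, rose in vnd2, with 42.1 and 40.6 CPM against 28.6 and 31.0 CPM in Col-0 (log2 fold change 0.47, SE 0.0667, adjusted p = 0.000126, edgeR), and kept its call in all 18 fits that left out 1 library and under the 7 other settings run for it. No other of the 104 tests was called by edgeR, while DESeq2 called 3, adding SYD (adjusted p = 0.00429) and ULT1 (adjusted p = 0.00745) in vnd2. In vnd2 edgeR called 4.13% of all genes, and 1 call among 13 genes is not set apart from that share. The shares of all genes called by DESeq2 or past 0.05 in vnd2 are not given here. The median log2 fold change of the 13 genes in vnd2 was 0.20, beside 0.06 for the 10 repressors and 0.00 for all genes. With edgeR, 4 further genes were past 0.05 but not 0.01 in vnd2. The SWI/SNF ATPase gene SYD (0.28, adjusted p = 0.0154), the H3K36 methyltransferase gene SDG8 (0.26, adjusted p = 0.0433) and the remodeller gene CHR5 (0.23, adjusted p = 0.0354) were fitted as higher, and the trithorax-group gene ULT1 as lower (−0.50, adjusted p = 0.0126).

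Among the loci that the repressors silence, 10 seed programme regulators were listed and 7 passed the filter. They showed 0 called differences from Col-0 in 56 tests, against 0.147% (athb15) to 4.13% (vnd2) of all genes. DESeq2 also called 0. An unadjusted p under 0.05 was found in 10 tests, for which no share over all genes is given here. LEC1, L1L and DOG1 were too low to test. ABI3 was within 0.13 of Col-0 on the log2 scale in every mutant. ABI5 was at 141.2 and 125.2 CPM in Col-0. Its difference was −0.32 in athb25 (adjusted p = 0.0264, edgeR) and −0.30 in the libraries labelled obp1 (adjusted p = 0.0231, edgeR). In these lines 6.18% and 10.5% of all genes had an adjusted p under 0.05. FUS3, at 1.43 and 1.40 CPM in Col-0, was at 0.663 and 0.536 CPM in hat2 (−1.23, adjusted p = 0.0499, edgeR). Of 13 floral and meristem targets 7 were tested and 1 rose, the FLC relative MAF4 in vnd2 (0.46, SE 0.105, adjusted p = 0.00925, edgeR). In vnd2 4.13% of all genes were called, and 1 call among 7 genes is not set apart from that share. That call was lost when any 1 library of Col-0, lmi1, athb25 or athb15 or vnd2 replicate 2 was left out, with adjusted p from 0.0101 to 0.116, and was not made by DESeq2 (adjusted p = 0.0158), with a mean of at least 50 counts (0.0115) or in a fit of the 2 genotypes alone (0.0429).

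The seed storage and oil body genes, the downstream products of the programme, passed the test in 4 mutants in which no repressor did. Their summed level was 2142 and 1805 CPM in Col-0, 11720 and 6854 CPM in vnd2, 4499 and 4950 CPM in smb, and 992.0 and 887.2 CPM in hat2. All 9 genes rose in vnd2 and 5 of 9 in smb, where 1.97% and 0.618% of all genes were called as higher, and 7 of 9 fell in hat2, where 0.267% were called as lower. The list was chosen with earlier results of these data known, so its counts are description only. SESA4 also rose for the wrky14 label (0.80, adjusted p = 0.00535, edgeR), a call lost without Col-0 replicate 2 or either library of that label. CRU3 and CRA1 rose most in vnd2, by 2.61 and 2.33 on the log2 scale, and SESA1 rose by 1.27 there and fell by 0.92 in hat2 (adjusted p = 0.00417, edgeR). Without Col-0 replicate 1, SESA2 alone kept its call in hat2, and the calls of SESA1, CRU3 and OLEO1 there were also lost without any 1 of Col-0 replicate 2 and the 2 hat2 libraries, that of CRU2 without either hat2 library, and that of CRU3 also without either library of athb15 or of the obp1 label or smb replicate 2. In smb those of CRA1, CRU3 and OLEO1 were lost without Col-0 replicate 2, and those of CRA1 and OLEO1 without smb replicate 2. In vnd2 only that of OLEO2 was lost, without Col-0 replicate 2 or vnd2 replicate 1. The 10 repressors had a median log2 fold change of 0.06 in vnd2, 0.00 in smb and −0.02 in hat2. Markers of other tissues were summed in the same libraries. The 4 endosperm genes summed to 6460 to 7757 CPM in Col-0, 8635 to 8728 CPM in vnd2, 8214 to 10420 CPM in smb and 6478 to 8713 CPM in hat2, the last overlapping Col-0. For the obp1 label they summed to 7410 to 12637 CPM, also overlapping Col-0, and in athb25 to 5702 to 6259 CPM. Most of each sum was EPR1, at a mean of 6172 CPM over all libraries, against 1263 CPM for the next, EXPA2. Of the 4 genes, 1 was fitted as higher in smb (median log2 fold change −0.10), and 3 in vnd2 (0.16) and in hat2 (0.02). The 8 cell division genes summed to 207.8 to 218.8 CPM in Col-0, 173.0 to 185.4 CPM in vnd2, 184.8 to 185.6 CPM in smb and 196.0 to 207.2 CPM in hat2. For the obp1 label, in which CLF, MSI4 and VEL1 were described above, the sum was 187.1 to 194.4 CPM. In athb25, where the CLF difference was the largest, it was 214.5 to 222.1 CPM, overlapping Col-0. Of the 8 genes, CDKB1;1 fell in vnd2 (−1.07, adjusted p = 0.00138, edgeR), a call lost without Col-0 replicate 2 or vnd2 replicate 2 and in a fit of the 2 genotypes alone (adjusted p = 0.0129). The part of these markers in the repressor values was not tested. Transcript levels do not measure H3K27me3 or the amount of repressor protein.

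**Figure D5:**
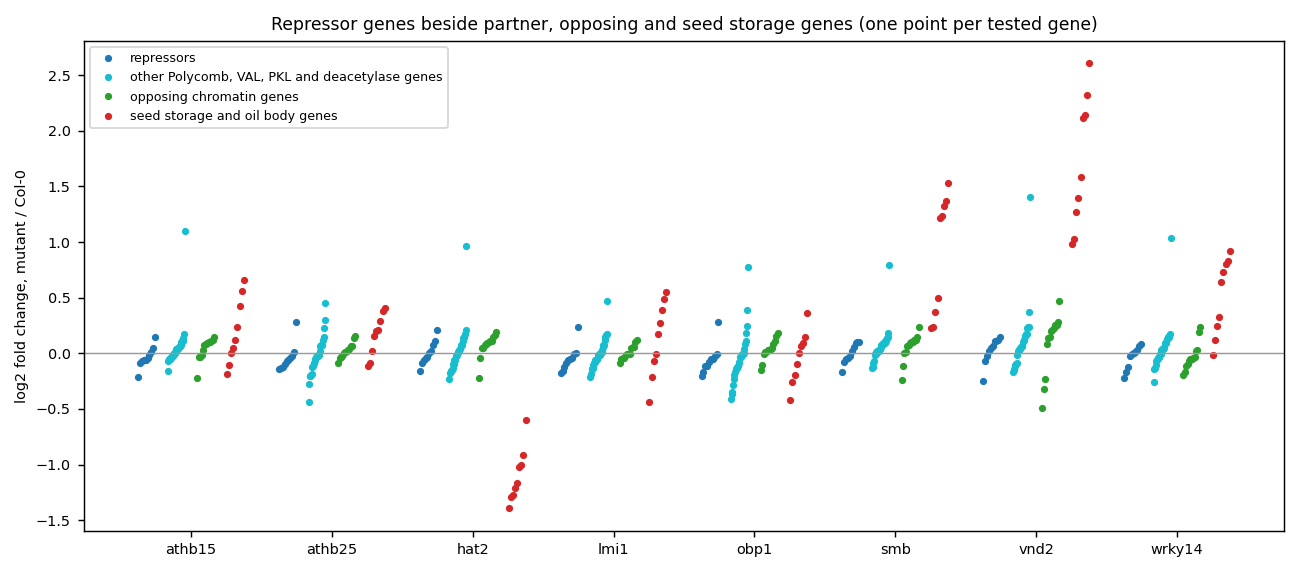
Log2 fold change of each tested gene against Col-0 (vertical axis) in the 8 mutants (horizontal axis), for the 10 repressors, their 28 tested partners, the 13 opposing chromatin genes and the 9 storage and oil body genes. The repressors stay between −0.25 and 0.28 in every mutant, while the storage genes reach 2.61 in vnd2 and lie below 0 in hat2. The separate partner point above the rest in every mutant is VIN3, which had at most 20 counts in a library.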

How the data were processed

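RNA was measured in 18 libraries of whole germinating seeds. Per the submitters' processing notes and the study's methods, the authors trimmed reads with Trim Galore 0.4.2, mapped them to TAIR10 with HISAT2 2.0.5 using the Araport11 annotation, and deposited raw counts per gene from featureCounts 1.5.1. The strand setting and the treatment of multi-mapping reads are not given in the sources used here. The libraries shared 1 flow cell. All 37336 rows named a gene.

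The deposited counts were tested here with edgeR 4.0.16 (R 4.3.3): filterByExpr (19100 genes kept), TMM scaling and quasi-likelihood tests with genotype as the only term, fitted on all 18 libraries, with Benjamini-Hochberg adjustment over all genes and a threshold of 0.01, the study's own. SEs are the log2 fold change over the square root of F. CPM uses TMM library sizes, and RPKM divides it by the exon length in the file. The fit was tested on simulated data. Likeness to CLF was taken over genotype means of log2(CPM + 0.5) for genes of at least 10 CPM. Gene names were matched to RefSeq (37051 of 37336 genes), whose positions for the 10 repressors equal those in the file. Proteins were not analysed here.

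Named genes were all 10 repressors, each with its largest difference, plus called genes of the other lists. ABI3, ABI5, FUS3, VIN3, SYD, SDG8, CHR5 and ULT1, named without a call, were chosen after their values were seen. The members and lists were chosen with earlier results of these data known. Alternatives were DESeq2 size factors, no filter, a mean of at least 50 counts, DESeq2 1.42.0, fits of 2 genotypes, a replicate block, a threshold of 0.05, the mean of the other mutants as reference, and leaving out each library.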

Additional observations from a re-analysis of the deposited data

How the results depend on the processing

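Against Col-0, the count of called repressors was 0 as reported, 1 (CLF in the libraries labelled obp1) with DESeq2 size factors, without the filter on low counts, with a mean of at least 50 counts and with DESeq2, and 2 at a threshold of 0.05. It was 0 with fits of 2 genotypes, with the replicate block and with the mean of the other 7 mutants as the reference, and 0 to 1 when 1 library was left out, the 1 again being CLF in the libraries labelled obp1, without hat2 replicate 1, lmi1 replicate 1, smb replicate 2 or vnd2 replicate 1. The test over all 9 genotypes called 1 gene, CLF, under those same 4 alternatives and at 0.05, and 0 to 1 with 1 library left out (1 without smb replicate 1). The 3 calls over all pairs of genotypes, those with Col-0 included, became 12 at 0.05, 0 with the replicate block, and 0 to 5 with 1 library left out. They were 0 without Col-0 replicate 2, vnd2 replicate 2 or any 1 library of athb15 or of those labelled obp1, and 5 without smb replicate 2. Partner calls were 6 without the filter, 10 at 0.05 and 0 to 2 with 1 library left out, opposing genes 3 without the filter, 3 with DESeq2, 5 at 0.05 and 1 to 2, and seed programme regulators 4 without the filter, 3 at 0.05 and 0 to 0. Without the filter 26321 genes were tested. The shares of all genes called under each alternative are not given here, so these counts are description only. The cause of these changes was not tested.

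The log2 difference of CLF was 0.21 to 0.34 in athb25 and 0.28 to 0.30 in the libraries labelled obp1 when 1 library was left out, and no named difference of a repressor changed direction when 1 library was left out or under the 7 other settings run for it, which do not include the other mutants as reference. MSI4 and VEL1 ranged from −0.40 to −0.27 and from 0.37 to 0.42. CRU3 in hat2 and MAF4 in vnd2 were the only calls of named genes against Col-0 that the replicate block lost (adjusted p = 0.0112 and 0.0123, edgeR).

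The replicate numbers did not pair the samples: the correlation of same-numbered deviations with those of Col-0 ran from −0.12 (hat2) to 0.16 (smb). A fit with a replicate block in which hat2 was numbered the other way round, chosen after seeing the data, called 0 repressors and 122 genes in hat2, and the fit without any block called 126 genes. These fits differ in the block as well as in the numbering. With 2 libraries a genotype, the SEs of the repressors against Col-0 were 0.0586 to 0.0826. Differences within their intervals are not excluded, and no detection limit was computed.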
